A study of Homo sapiens with 21 samples.

Results

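The HOX genes were examined in U-87MG, a long-cultured line of human glioblastoma cells. Its clones carried, in stable form, either parkin, a ubiquitin ligase best known for marking damaged mitochondria for removal, or the empty vector alone. Members were all genes named HOXA, HOXB, HOXC or HOXD with a number, and each was measured by 1 probe set of a whole-transcript array that named no other gene. They numbered 27 of 18374 genes: HOXA2 as the only HOXA gene, 10 HOXB genes, 7 HOXC genes and 9 HOXD genes. A further probe set that names both HOXC4 and HOXC6 was not used, and the other HOXA genes were not analysed here.

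HOX genes encode homeodomain transcription factors that give cells of the embryo their position along the head-to-tail axis and, for the high-numbered genes, along the limb. They lie in clusters on 4 chromosomes, HOXA on chromosome 7, HOXB on 17, HOXC on 12 and HOXD on 2, and within a cluster the order of the genes follows the order in which they are used along the body. Polycomb proteins keep a cluster silent and Trithorax proteins and retinoic acid help to open it, while PBX and MEIS proteins bind DNA together with HOX proteins. Normal adult forebrain has little HOX expression, and HOX genes are often found active in glioblastoma cells.

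The parkin clones were PK7, PK19 and PK25 and the vector clones V8, V17 and V22. Each is 1 stable clone with 3 arrays in an array series, as read from the prefix of the scanner file names, and V22 alone was measured in both series, which gives 21 arrays, 9 of parkin clones and 12 of vector clones. PK7, PK19 and PK25 were compared with V22 of the second series, and V8 and V17 with V22 of the first. The prefixes were taken to mean series measured apart, which the labels do not state. The labels give the same cell line and culture for every clone and name no further treatment. Values are log2 RMA intensity, a background-corrected and normalized brightness, so a difference of 1 is a 2-fold difference. A gene passed the test at a limma p under 0.05 after Benjamini-Hochberg adjustment over 26947 probe sets, and is called here when it also differed at least 2-fold. Arrays of a clone may be repeats of 1 RNA, so these p-values measure the spread between arrays and not between cultures. The set 2 array of PK7 and the set 3 array of PK25 stood apart, with medians of 6.36 to 6.37 against 6.21 to 6.29 on the other arrays.

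Markers fixed for a glioblastoma line (VIM, CD44, NES, FN1 and TNC) averaged 11.08 to 11.34 on parkin arrays and 11.12 to 11.25 on vector arrays. Single markers moved both ways against V22. Of the 5, 2 passed higher and 2 lower in PK7, 1 higher and 2 lower in PK19, and 1 each way in V8. Of genes with a mean above 7, 28.9% passed in PK7, 24.8% in PK19 and 14.4% in V8. None of the 5 was called. Those of astrocytes and glioma stem cells (GFAP, S100B, SOX2 and OLIG2) averaged 5.39 to 5.96 on parkin arrays and 5.37 to 5.86 on vector arrays, with S100B among the dimmest 30% of probe sets. Markers of blood, endothelium, epithelium and muscle averaged between 4.21 and 6.44 on parkin arrays and between 4.24 and 6.12 on vector arrays, and none was called in any clone. The array gives no call of presence, so brightness was read only as a place among all probe sets. By their mean over the 21 arrays, 7 of the 9 HOXD genes lay above the median probe set, against 2 of 10 HOXB genes, 1 of 7 HOXC genes and not HOXA2. The dimmest 30% of probe sets held 4 of the 27 members, 1 in each cluster (HOXA2, HOXB5, HOXC9 and HOXD3).

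The stretches upstream of HOXD10, HOXD11, HOXD13 and HOXD8 are shown because these HOXD genes carried the clone differences described below. Each is the 250 bases before the start of the gene in RefSeq on GRCh38.p14, plus strand, 5′ to 3′. The positions are chr2:176116528-176116777 for HOXD10, chr2:176107030-176107279 for HOXD11, chr2:176092471-176092720 for HOXD13 and chr2:176129455-176129704 for HOXD8. Capitals mark matches on either strand to a TATA box (TATAAA), a site for a HOX and PBX pair (TGATNNAT) or a site for CDX and high-numbered HOX proteins (TTTATNG).
HOXD10: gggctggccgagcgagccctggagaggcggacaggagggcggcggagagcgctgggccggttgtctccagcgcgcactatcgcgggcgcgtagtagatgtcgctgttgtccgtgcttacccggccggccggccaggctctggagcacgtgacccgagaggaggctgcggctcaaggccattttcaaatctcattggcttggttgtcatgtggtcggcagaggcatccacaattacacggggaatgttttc
HOXD11: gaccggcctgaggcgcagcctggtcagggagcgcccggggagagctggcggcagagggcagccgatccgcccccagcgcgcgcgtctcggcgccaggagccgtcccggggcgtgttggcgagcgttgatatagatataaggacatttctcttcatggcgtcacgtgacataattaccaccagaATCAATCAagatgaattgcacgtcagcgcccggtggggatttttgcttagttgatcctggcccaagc
HOXD13: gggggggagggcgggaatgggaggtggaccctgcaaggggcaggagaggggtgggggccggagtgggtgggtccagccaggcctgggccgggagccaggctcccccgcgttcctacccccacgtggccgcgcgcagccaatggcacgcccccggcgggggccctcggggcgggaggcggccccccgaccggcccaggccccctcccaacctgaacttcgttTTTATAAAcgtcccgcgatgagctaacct
HOXD8: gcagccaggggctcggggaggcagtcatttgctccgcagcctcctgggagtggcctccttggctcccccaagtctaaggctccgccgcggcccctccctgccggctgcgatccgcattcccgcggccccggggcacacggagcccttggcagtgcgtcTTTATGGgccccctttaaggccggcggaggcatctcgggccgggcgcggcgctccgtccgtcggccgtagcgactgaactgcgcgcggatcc
The HOXD13 window held the TATA box on both strands, in overlapping matches that begin 29 and 27 bases before the start. HOXD11 had 1 HOX and PBX match that begins 67 bases before the start, on the minus strand, and HOXD8 had 1 TTTATNG match 92 bases before it. None of the 3 motifs was in the HOXD10 window. Among all 35116 windows of this length, 10.72% held the TATA box, 6.473% the HOX and PBX motif and 8.93% the TTTATNG motif. The CG dinucleotide occurred 23 times in the HOXD10 window, 23 times in HOXD11, 21 times in HOXD13 and 28 times in HOXD8, against a median of 11 over all windows. A window was given for 11 of the 27 members, and a motif match is a description of the letters only.

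In PK19, the high-numbered HOXD genes HOXD10 and HOXD11 were lower than in V22, and both were called. HOXD10 takes part in patterning the hindlimb and the lumbar motor neurons, and HOXD11 in forming the forearm and the kidney. HOXD10 was at 5.52, 5.77 and 5.75 in PK19, against 6.90, 7.38 and 6.83 in V22. Every PK19 array lay more than 1 log2 unit below every V22 array. The difference was -1.36 (SE 0.19), 2.56-fold lower, with a limma adjusted p of 2.6e-05. In RNA of a whole culture, fewer cells with a transcript and less of it per cell cannot be told apart.

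HOXD11 was at 5.88, 6.18 and 5.88 in PK19, against 6.92, 7.11 and 6.95 in V22. These groups did not overlap either. The difference was -1.02 (SE 0.11), 2.02-fold lower, with a limma adjusted p of 1.2e-06. It lay at the edge of the 2-fold limit, at -0.96 without the set 5 array of V22, -0.97 without the set 1 array of PK19 and -0.96 without the set 3 array of PK19, and it passed the test each time.

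The 2 called members were 7.41% of the 27, where 1.27% of all probe sets were called lower in PK19 and 2.89% in either direction. With no minimum fold, 6 of the 27 members passed the test in PK19 and all 6 were lower, against 7.4% of all probe sets lower and 14% in either direction. These were HOXC5 and, of the 9 HOXD genes, HOXD4, HOXD9, HOXD10, HOXD11 and HOXD13. The median difference of the HOXD genes was -0.39, and 8 of the 9 were lower, with HOXD1 at 0.04 as the exception. By contrast the medians were 0.04 for HOXB, 0.0025 for HOXC and -0.00045 for all probe sets.

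**Figure D1:**
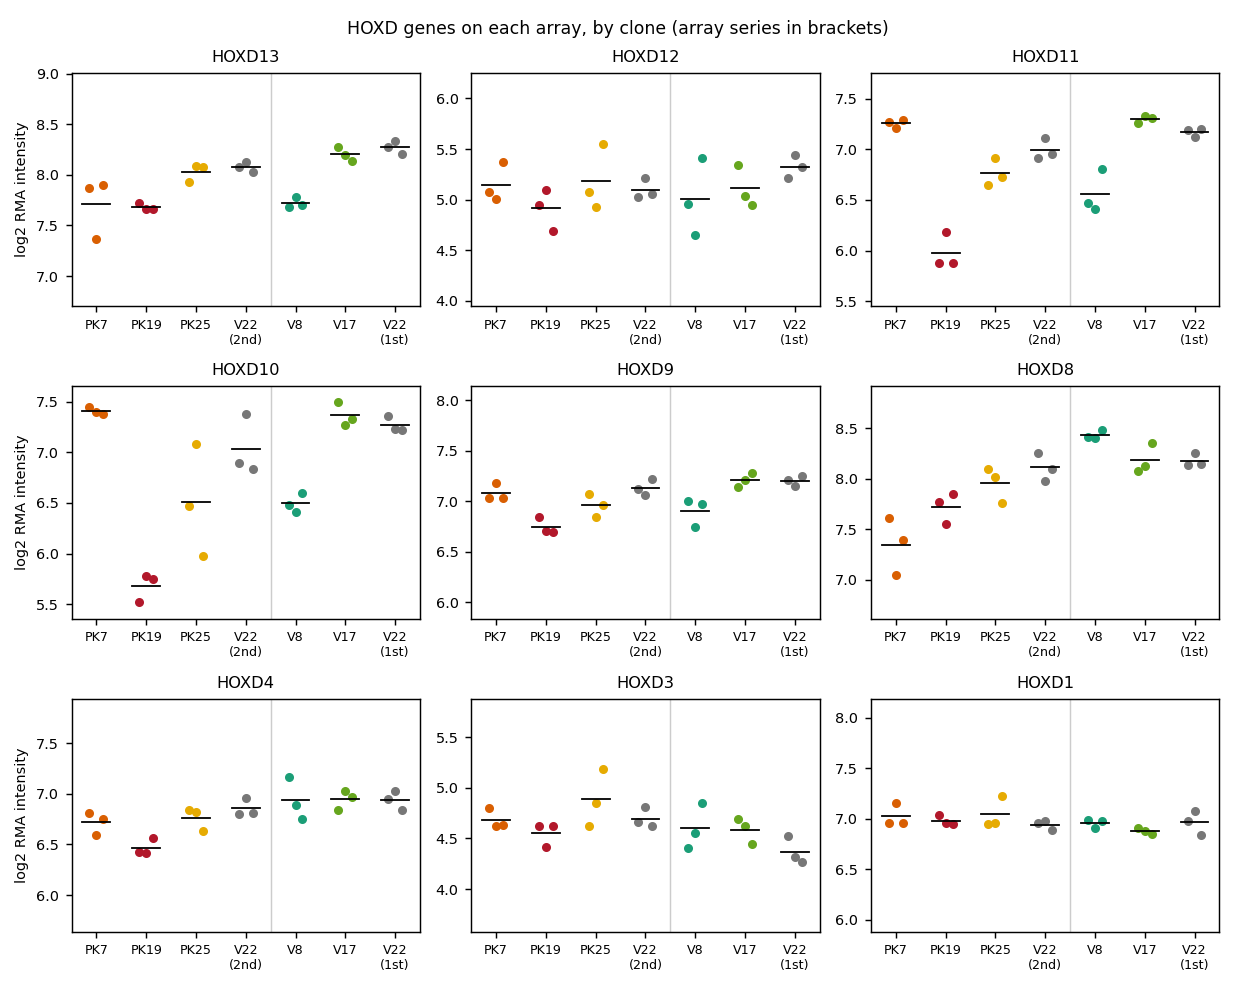
The 9 HOXD genes on each of the 21 arrays, with log2 RMA intensity on the vertical axes (each spans its own range) and the clones along the horizontal axes, parkin clones and V22 of the second series left of the grey line, V8, V17 and V22 of the first series right of it. Points are arrays and bars are means of 3. HOXD10 and HOXD11 are lowest in PK19 (HOXD10 5.52 to 5.77) and are also low in V8 (HOXD10 6.41 to 6.59), while HOXD1 stays between 6.84 and 7.23 on all arrays.

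HOXD13, the gene at the outer end of the cluster that shapes the digits, was at 7.72, 7.66 and 7.66 in PK19, against 8.07, 8.13 and 8.03 in V22. It fell by 0.40 (SE 0.11, limma adjusted p 0.017). HOXD9, a neighbour of HOXD10 with a role in the limb and the lower spine, was at 6.84, 6.71 and 6.69 in PK19, against 7.12, 7.06 and 7.22 in V22. It fell by 0.39 (SE 0.093, limma adjusted p 0.0060). HOXD4, which acts in the hindbrain and neck and responds to retinoic acid, was at 6.42, 6.41 and 6.56 in PK19, against 6.81, 6.96 and 6.81 in V22. It fell by 0.39 (SE 0.11, limma adjusted p 0.015). In all 3 genes the PK19 arrays lay below every V22 array. HOXD13 missed adjusted p 0.05 in 5 of 16 other settings (largest 0.068, difference -0.42 to -0.37 with 1 array left out), among them without set 4 or 5 of V22 or set 2 or 3 of PK19. HOXD4 missed it in 3 of 16 (largest 0.079, difference -0.44 to -0.34), without set 5 of V22 or set 1 or 2 of PK19. The settings counted include other fold minimums and the mean of a gene's probe sets, which could not change a member's adjusted p.

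HOXD8 differed by -0.39 in PK19 with a limma adjusted p of 0.054 and did not pass, although its 3 arrays (7.77, 7.55 and 7.85) lay below those of V22 (8.25, 7.98 and 8.10). HOXD12, another limb gene, differed by -0.18 (95% interval -0.56 to 0.19) and HOXD3 by -0.14 (-0.43 to 0.14). HOXD1, which acts in the hindbrain, differed by 0.04 (-0.15 to 0.23).

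Outside HOXD, HOXC5 was the only member that passed in PK19. HOXC5 patterns the neck and upper trunk. It was at 5.17, 4.90 and 5.30 in PK19, against 6.00, 5.63 and 6.12 in V22, a difference of -0.80 (SE 0.15, limma adjusted p 0.00053). The 10 HOXB genes lay between -0.14 and 0.30 and none passed.

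Bright genes near the HOXD cluster did not share a common direction in PK19. The 20 nearest genes with a mean above 7, 10 on each side, had a median difference of -0.08, with 11 lower and 6 past the test, where 24.8% of all 8717 genes with a mean above 7 passed. The closest of them were LNPK at 0.30 and MTX2 at -0.07, neither past the test. Of the 20, CHN1 (1.61) and PDK1 (1.18) were called higher and CDCA7 (-1.51) and SESTD1 (-1.09) called lower. These 4 of 20 stand beside 2.89% of all probe sets called in either direction in PK19. The share called among genes with a mean above 7 was not computed. In PK7, 2 of the same 20 were called, where 2.3% of all probe sets were, and 6 passed the test.

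Some markers of other cell types moved with PK19. The 3 neuron markers averaged 7.06 to 7.25 on PK19 arrays and 6.17 to 6.31 on V22 arrays of the second series. SYT1 (1.48) and SNAP25 (1.33), which serve vesicle release, were called higher, and RBFOX3 differed by -0.15. SOX2, a stem cell factor, was called lower at -1.09, at 5.64 in PK19 and 6.73 in V22. Of the 4 astrocyte and glioma stem markers SOX2 alone passed in PK19, and their median difference was -0.08. The part of the neuron markers and of SOX2 in the HOXD result was not tested.

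**Figure D2:**
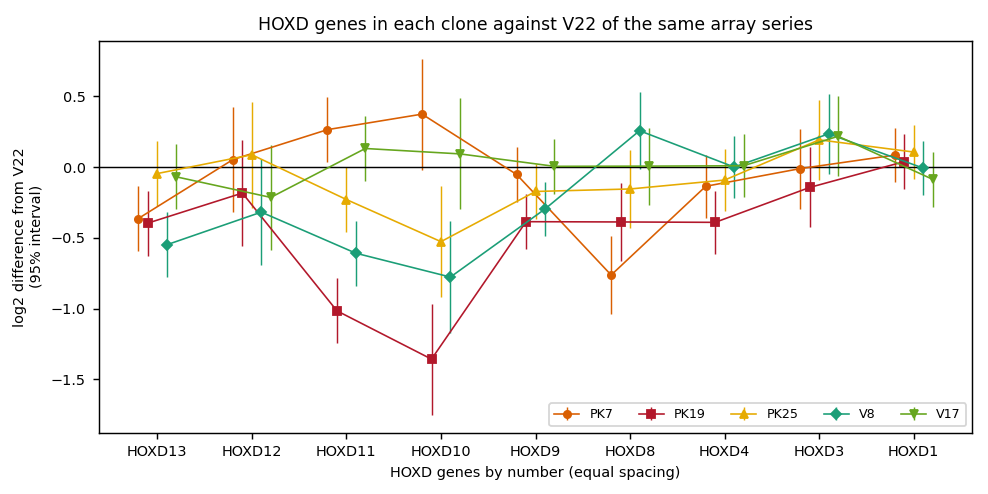
Difference of each clone from V22 of the same array series for the 9 HOXD genes, ordered by number along the horizontal axis, with the log2 difference and its 95% interval from limma on the vertical axis. PK19 falls to -1.36 at HOXD10 and -1.02 at HOXD11, V8 to -0.78 and -0.61, while PK7 reaches 0.37 and 0.26 at these genes and has its lowest value, -0.76, at HOXD8.

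In PK7, 4 of 27 members passed the test with no minimum fold, 14.8% of them, which is near the 15.2% of all probe sets that passed in either direction. All 4 were lower (HOXB2, HOXC5, HOXD8 and HOXD13), where 8.11% of all probe sets passed lower, and HOXC5 and HOXD13 had also passed as lower in PK19. None was called at 2-fold, where 2.3% of all probe sets were called.

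HOXD8, a trunk gene in the middle of the cluster, was at 7.61, 7.05 and 7.39 in PK7, against 8.25, 7.98 and 8.10 in V22. All PK7 arrays were lower. The difference was -0.76 (SE 0.13, limma adjusted p 0.00030), and -0.61 without the set 2 array of PK7, which also gave the lowest value. HOXC5 was at 5.30, 4.84 and 5.37 in PK7, a difference from V22 of -0.75 (SE 0.15, limma adjusted p 0.0011), and -0.58 without the same array. PK7 lay below all V22 arrays in this gene too.

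HOXB2, which gives the hindbrain segments their identity, was at 8.28, 8.25 and 8.36 in PK7, against 8.88, 8.51 and 8.63 in V22. It fell by 0.38 (SE 0.12, limma adjusted p 0.039). The 20 nearest genes of the HOXB cluster with a mean above 7 had a median difference of -0.29 in PK7, with 14 lower and 10 past the test, where 28.9% of all genes with such a mean passed. In the vector clone V8 they had a median of -0.24, with 17 lower and 6 past the test (14.4% of such genes). HOXB2 differed by 0.06 in V8 and did not pass. The part of these neighbours in the HOXB2 value was not tested, and the HOXB genes themselves had a median of 0.04 in PK7. HOXD13 was at 7.87, 7.37 and 7.90 in PK7 and fell by 0.36 (SE 0.11, limma adjusted p 0.028). Without the set 2 array of PK7, HOXB2 was at -0.36 (adjusted p 0.11) and HOXD13 at -0.19 (adjusted p 0.18), so neither passed. HOXB2 also missed adjusted p 0.05 without set 1 or 3 of PK7 or set 4 or 6 of V22 (-0.46 to -0.28, largest 0.22), and HOXD13 without any 1 of the V22 arrays (-0.46 to -0.19 over all arrays left out). HOXD10 was at 7.45, 7.40 and 7.38 and HOXD11 at 7.27, 7.21 and 7.29 in PK7. Both stood above every V22 array, with differences of 0.37 (adjusted p 0.22) and 0.26 (adjusted p 0.12) that did not pass. HOXB6, HOXB7, HOXC8, HOXC10 and HOXC13 also stood above every V22 array in PK7, and none of them passed. The share of all probe sets separated in this way was not computed.

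In PK25 no member passed the test, with 1.37% of all probe sets past it and 0.193% called at 2-fold. HOXD10 was at 6.47, 7.08 and 5.98 in PK25, against 6.90, 7.38 and 6.83 in V22. These 3 arrays spread over more than 1 log2 unit, and the set 3 array, one of those that stood apart, was the lowest. The difference was -0.53 (95% interval -0.92 to -0.13, limma adjusted p 0.24). It was -0.26 (95% interval -0.60 to 0.08, adjusted p 0.91) without that array, -0.35 (adjusted p 0.60) without the set 5 array of V22, and -0.81 (adjusted p 0.0084), past the test, without the set 2 array of PK25. HOXD11 in PK25 was at 6.65, 6.92 and 6.73, a difference of -0.23 (95% interval -0.46 to 0.00045). The HOXD genes had a median of -0.09 in PK25, the HOXB genes 0.09 and the HOXC genes 0.18. Without the set 3 array the HOXB median was 0.0067 and the HOXC median -0.09.

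The parkin clones were also compared with each other. HOXD10 was 1.73 higher in PK7 than in PK19 (SE 0.19, limma adjusted p 1.5e-06), and HOXD11 was 1.28 higher (SE 0.11, adjusted p 7.1e-08). These were the 2 members called between PK7 and PK19, where 1.38% of all probe sets were called higher in PK7 and 2.45% in either direction. With no minimum fold, HOXD9 (0.33) and HOXB2 (-0.41) also passed, which made 3 members higher and 1 lower, where 7.85% of all probe sets passed higher, 7.94% lower and 15.8% in all. HOXB2 missed adjusted p 0.05 in 6 and HOXD9 in 5 of 17 other settings.

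Against PK25, PK19 had 4 of 27 members past the test, all lower, where 6.77% of all probe sets passed lower and 14.9% in either direction. They were HOXD10 (-0.83), HOXD11 (-0.79), HOXC5 (-0.54) and HOXD13 (-0.35). The HOXD10 difference was -0.54 (adjusted p 0.021) without the set 2 array of PK25 and -1.10 (adjusted p 0.00011) without its set 3 array. PK7 against PK25 had HOXD10 (0.90) and HOXD11 (0.49) higher and HOXD8 (-0.61) and HOXC5 (-0.49) lower, 4 of 27. Of all probe sets, 7.53% passed higher in PK7, 6.33% lower and 13.9% in all. No member was called at 2-fold in these comparisons, against 2.61% of all probe sets for PK19 and 2.05% for PK7. HOXC5 against PK25 and HOXD13 in PK19 against PK25 missed adjusted p 0.05 in 3 to 8 of 17 other settings.

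The vector clones gave the same measure with no introduced parkin. In V8, 3 HOXD genes at the high-numbered end were lower than in V22 and HOXC8 was higher. With no minimum fold 4 of 27 members passed, 1 higher and 3 lower, where 3.78% of all probe sets passed higher, 4.22% lower and 8% in all, and none was called at 2-fold, where 0.98% were called.

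HOXD10 was at 6.48, 6.41 and 6.59 in V8, against 7.36, 7.24 and 7.22 in V22 of the first series. The clones did not overlap. HOXD10 fell by 0.78 (SE 0.19, limma adjusted p 0.012). HOXD11 was at 6.47, 6.41 and 6.81 in V8, against 7.19, 7.12 and 7.20 in V22, and fell by 0.61 (SE 0.11, limma adjusted p 0.0011). HOXD13 was at 7.69, 7.78 and 7.70 in V8, against 8.27, 8.34 and 8.20 in V22, and fell by 0.55 (SE 0.11, limma adjusted p 0.0028). In both, all V8 arrays lay below all V22 arrays. HOXD9 at -0.30 (adjusted p 0.055) and HOXD12 at -0.32 (adjusted p 0.36) did not pass. HOXD10 missed adjusted p 0.05 without set 1 of V22 or set 2 of V8, with a largest value of 0.055 and a difference of -0.83 to -0.73.

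The HOXD genes of V8 had a median of -0.30 with 6 of 9 lower, against -0.0034 for all probe sets. HOXD8 went the other way in V8, at 8.41, 8.41 and 8.49, against 8.13, 8.25 and 8.15 in V22. Its difference of 0.26 had an adjusted p of 0.30. The same 20 neighbours of the HOXD cluster had a median of 0.07 in V8 and none passed the test. SYT1 was 0.43 higher (adjusted p 0.018) and SOX2 0.97 lower (adjusted p 0.0062) in V8. SOX2 was also 0.97 lower in PK7 (adjusted p 0.0029), where HOXD10 and HOXD11 were higher than in V22 but did not pass. Of the 4 astrocyte and glioma stem markers SOX2 alone passed in V8 and in PK7. Their median differences were 0.03 in V8 and -0.03 in PK7. The part of SYT1 or SOX2 in the HOXD values was not tested.

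HOXC8, which patterns the thorax and the motor neurons of the arm, was at 6.42, 6.93 and 6.70 in V8, against 5.99, 5.99 and 5.82 in V22. It rose by 0.75 (SE 0.18, limma adjusted p 0.0093), and all V8 arrays were higher. Without the set 2 array of V8 the adjusted p was 0.063. HOXC8 was also above V22 on every array of PK7 (6.24, 6.24 and 6.08) and PK19 (6.22, 6.05 and 6.19), against 5.93, 5.82 and 5.57 in V22, with differences of 0.41 (adjusted p 0.13) and 0.38 (adjusted p 0.20). HOXA2, a gene of the hindbrain and the jaw arches, was at 4.81, 5.58 and 5.37 in V8, against 4.72, 4.76 and 4.67 in V22, a difference of 0.54 (95% interval 0.12 to 0.96, adjusted p 0.12) at the dim end of the array.

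V17 had no member past the test against V22, and 0% of all probe sets passed it. Its largest member differences were HOXD3 (0.22) and HOXD12 (-0.21). HOXD10 was at 7.49, 7.27 and 7.33 in V17, against 7.36, 7.24 and 7.22 in V22. Between V8 and V17, 5 of 27 members passed, where 3.37% of all probe sets passed higher in V8, 4.94% lower and 8.31% in all. These were HOXC8 higher (0.95) and HOXD10 (-0.87), HOXD11 (-0.74), HOXD13 (-0.48) and HOXD9 (-0.30) lower. None reached the call, against 0.898% of all probe sets, and HOXD9 missed adjusted p 0.05 in 10 of 16 other settings. V22 itself in the second series against the first had no member past the test, against 0.0297% of all probe sets. Its HOXD10 differed by -0.24 (95% interval -0.63 to 0.16) and its HOXD13 by -0.19 (-0.42 to 0.04). Here too 8 of the 9 HOXD genes were lower, with a median of -0.08, and HOXD3 was higher by 0.33 (0.04 to 0.61), the largest difference of a member between the series of V22.

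**Figure D3:**
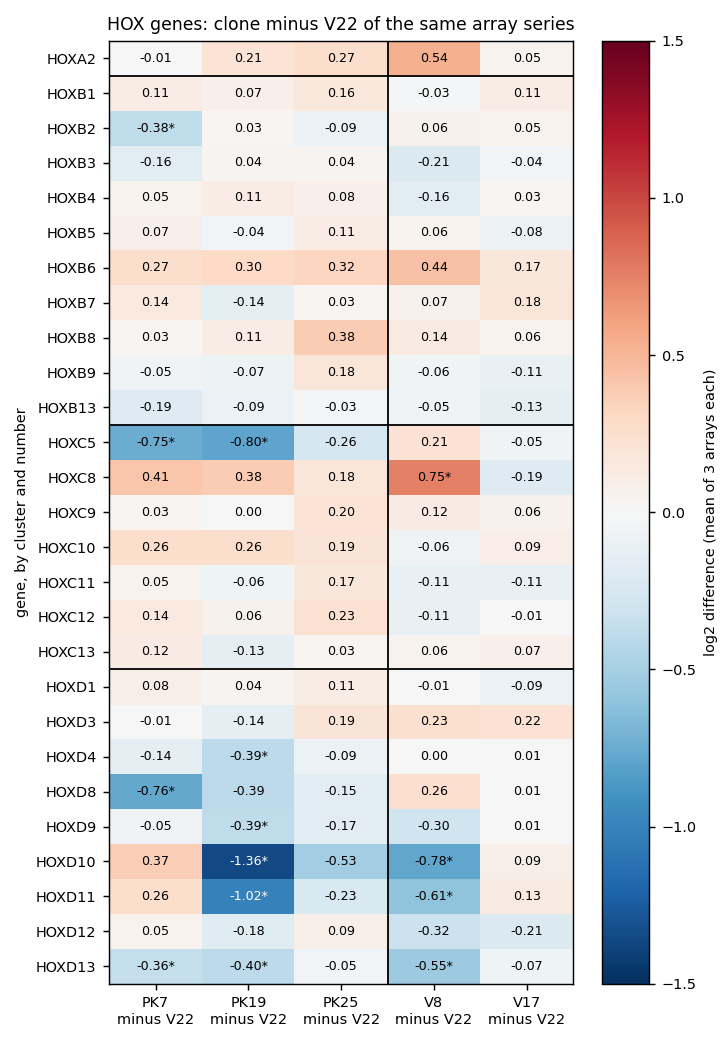
Log2 difference of each clone from V22 of the same array series, mean of 3 arrays each, for the 27 HOX genes (rows, by cluster and number), with red for higher and blue for lower and a star where limma's adjusted p was under 0.05. Blue stars sit mostly in the HOXD block, at 5 genes in PK19, 3 in V8 and 2 in PK7, and the HOXB block has 1 star, HOXB2 in PK7 at -0.38.

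Across the 5 clones set against V22, 9 of 27 members, 33.3%, passed in at least 1 clone, where 25.8% of all probe sets did. They were 6 of 9 HOXD genes, 2 of 7 HOXC genes (HOXC5 and HOXC8), 1 of 10 HOXB genes (HOXB2) and not HOXA2. Brightness differed between the clusters as given above, and whether it bears on these counts was not tested. The comparisons of parkin clones share the V22 arrays of the second series, and those of vector clones share the V22 arrays of the first.

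The order of the clones was not the same for the genes that varied most. HOXD10 averaged 7.41 ± 0.03 in PK7, 6.51 ± 0.55 in PK25, 5.68 ± 0.14 in PK19, 6.50 ± 0.09 in V8, 7.37 ± 0.11 in V17, and 7.04 ± 0.30 and 7.27 ± 0.08 in V22 of the second and first series (SD, n = 3 arrays each). PK25 and V8 lay within the larger of their SDs, as did PK7 and V17. HOXD8 averaged 7.35 ± 0.28 in PK7, 7.72 ± 0.15 in PK19, 7.96 ± 0.18 in PK25, 8.43 ± 0.05 in V8, 8.18 ± 0.15 in V17, and 8.11 ± 0.14 and 8.18 ± 0.06 in V22 (SD, n = 3 arrays each). PK7 had the highest mean in HOXD10 and the lowest in HOXD8. Values of V8 and V17 against parkin clones were set across the 2 series here, with no test.

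Means of the 7 groups of arrays spanned 0.17 to 0.61 in the HOXB genes, against 0.23 to 1.10 in the HOXC genes and 0.17 to 1.73 in the HOXD genes. The widest in HOXB was HOXB6, expressed in the trunk. HOXB6 was at 5.10 to 5.66 (median 5.29) on parkin arrays and 4.85 to 5.84 (median 5.32) on vector arrays, which overlapped. HOXB8, a trunk gene, was at 5.46 to 6.28 (median 5.64) on parkin arrays and 5.29 to 5.86 (median 5.58) on vector arrays, with the highest value on the set 3 array of PK25.

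The other HOXB genes overlapped between parkin and vector arrays as well. These ranges pool clones and both array series with no adjustment. HOXB1 and HOXB3, both of the hindbrain, were at 5.86 to 6.37 and 5.98 to 6.40 on parkin arrays, against 5.73 to 6.12 and 5.64 to 6.29 on vector arrays. HOXB2 was at 8.25 to 8.88 on parkin arrays and 8.49 to 8.88 on vector arrays. HOXB4, which sustains blood stem cells, was at 6.31 to 6.48 on parkin arrays and 6.26 to 6.65 on vector arrays. HOXB5 and HOXB7 were at 4.65 to 4.91 and 4.67 to 5.28 on parkin arrays, against 4.32 to 5.05 and 4.94 to 5.34 on vector arrays. HOXB9 was at 5.27 to 6.22 on parkin arrays and 5.49 to 5.98 on vector arrays, and HOXB13, a gene of the tail end and the prostate, at 5.51 to 5.86 on parkin arrays and 5.41 to 5.87 on vector arrays.

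The HOXC genes that passed nowhere against V22 were HOXC9, HOXC10, HOXC11, HOXC12 and HOXC13. HOXC10, a gene of the lumbar motor neurons, was at 5.29 to 5.72 (median 5.48) on parkin arrays and 4.97 to 5.62 (median 5.28) on vector arrays. HOXC12 was at 6.40 to 6.94 on parkin arrays and 6.22 to 6.53 on vector arrays. HOXC9 and HOXC11 were at 4.18 to 4.79 and 4.95 to 5.75 on parkin arrays, against 3.97 to 4.63 and 4.68 to 5.40 on vector arrays. HOXC13, a gene of hair and nails, was at 5.16 to 5.62 on parkin arrays and 5.26 to 5.50 on vector arrays. All 5 overlapped between the groups of arrays. These ranges, like those of the HOXB genes, pool clones and both array series with no adjustment. The share of all probe sets that overlapped in this way was not computed. By clone means HOXB4, HOXC10 and HOXC12 were apart, as given below.

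**Figure D4:**
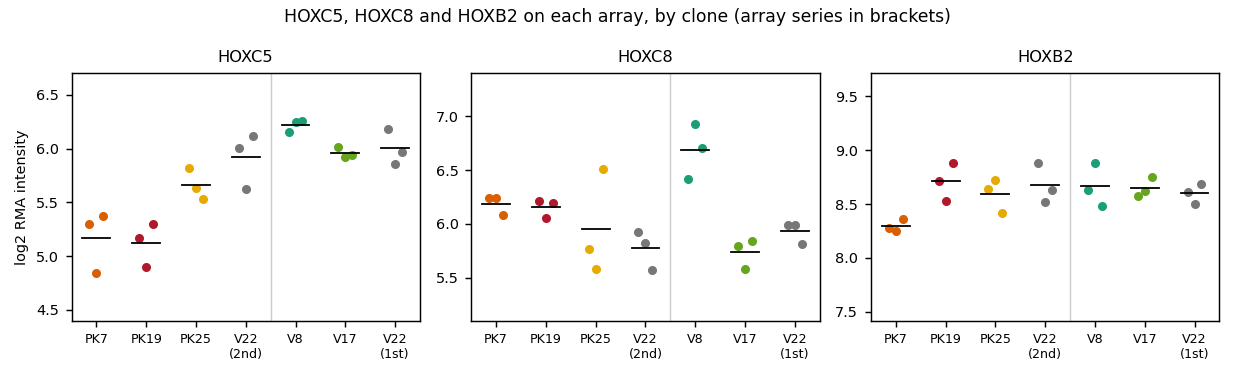
HOXC5, HOXC8 and HOXB2 on each of the 21 arrays, with log2 RMA intensity on the vertical axes and the clones along the horizontal axes, as in the plot of the HOXD genes; bars are means of 3 arrays. HOXC5 is lowest in PK7 and PK19 (4.84 to 5.37), HOXC8 highest in V8 (6.42 to 6.93), and HOXB2 lowest in PK7 (8.25 to 8.36).

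Parkin was then compared with vector over the 6 clone means, 3 against 3, with V8 and V17 moved by the difference of V22 between the series. The 3 vector means therefore share the V22 arrays of the second series and are not independent. The SD and the limma p leave that shared spread out. No member was called, where limma called 0.00371% of all probe sets at adjusted p under 0.05. HOXC5, HOXC10 and HOXD8 were below an unadjusted p of 0.05, 3 of 27 where 14.1% of all probe sets were. The smallest adjusted p of a member was 0.31.

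HOXC5 averaged 5.32 ± 0.30 in the parkin clones and 5.97 ± 0.14 in the vector clones (SD, n = 3 clones each), a difference of -0.66 (SE 0.16, limma adjusted p 0.31). HOXD8 averaged 7.68 ± 0.31 in parkin clones and 8.20 ± 0.15 in vector clones (SD, n = 3 clones each), a difference of -0.52 (SE 0.17, limma adjusted p 0.32). HOXC10 averaged 5.49 ± 0.04 in parkin clones and 5.27 ± 0.08 in vector clones (SD, n = 3 clones each), a difference of 0.22 (SE 0.073, limma adjusted p 0.32). HOXB2 and HOXA2, with the smallest p of their clusters, differed by -0.18 (adjusted p 0.48) and -0.04 (adjusted p 0.92).

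The clone means did not overlap in 7 of the 27 members, 25.9%, against 23.1% of all probe sets, which is near the background. HOXB4, HOXC10, HOXC12 and HOXD1 were higher in parkin clones and HOXC5, HOXD4 and HOXD8 lower, where 12.3% of all probe sets were apart and higher and 10.9% apart and lower. HOXD10, with 6.53 ± 0.87 in parkin clones and 6.81 ± 0.48 in vector clones (SD, n = 3 clones each), overlapped between the groups, with PK19 and V8 both low. HOXD11, with 6.67 ± 0.65 in parkin clones and 6.83 ± 0.39 in vector clones (SD, n = 3 clones each), overlapped too. The 27 members had a median difference of 0.02, against 0.0036 for all probe sets, with 14 higher and 13 lower.

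Proteins that work with HOX factors were measured beside them. The shares of all probe sets past the test, against which the counts in these lists are read, were 15.2% for PK7, 14% for PK19 and 1.37% for PK25, and 8% for the vector clone V8. Among genes with a mean above 7 the shares were larger, at 28.9% for PK7, 24.8% for PK19, 2.49% for PK25 and 14.4% for V8. Of 7 measured genes of the PBX, MEIS and PKNOX family, PBX3 was called lower in PK19, at 7.22 against 8.61 in V22 (difference -1.39, SE 0.11, limma adjusted p 1.4e-08), and it rose by 0.51 in V8 (adjusted p 0.0041). MEIS1 passed as lower in PK7 (-0.69), PK25 (-0.62) and V8 (-0.82), and MEIS2 in PK7 (-0.65). No gene of the family passed in V17.

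Polycomb repressive complex 2 places the silencing mark on histone H3. Of its 11 genes, 4 passed in PK19 and all were lower, where 7.4% of all probe sets passed lower. The list is bright, with a mean of 8.82 to 9.26 on parkin arrays. Of genes with a mean above 7, 24.8% passed in PK19 in either direction. The median of the 11 was -0.26 in PK19, against -0.00045 for all probe sets. JARID2, which recruits the complex, was called at -1.17, and PHF19 (-0.81), EZH2, the methyltransferase itself (-0.67), and RBBP4 (-0.36) passed. In PK7, 4 of the 11 passed, of which JARID2 (-0.98), EZH2 (-0.63) and PHF1 (-0.43) were lower and AEBP2 (0.48) was higher. In V8, JARID2 (-0.60) and PHF1 (-0.51) passed as lower and AEBP2 (0.68) as higher, and in PK25 EZH2 (-0.54) passed as lower. RING1, a ubiquitin ligase of Polycomb repressive complex 1, was the gene of 8 measured that passed in PK7 (-0.70), PK19 (-0.68) and V8 (-0.78), and CBX6 (-0.53) also passed in PK7.

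The Trithorax list had 2 of 11 genes past the test in PK7, a share near that of all probe sets, and none in the other clones, with ASH2L higher (0.41) and DOT1L lower (-0.64). In the retinoic acid and CDX list, 10 genes were measured, of which 3 passed in PK7, 2 in PK19 and 2 in V8. RARB, a retinoic acid receptor, passed as higher in PK7 (0.66) and as lower in PK19 (-0.83) and V8, where it was called (-1.62). ALDH1A3, which makes retinoic acid, passed as higher in PK7 (0.53), PK19 (0.55) and V8, where it was called (1.33), and CYP26B1, which degrades it, was called higher in PK7 (1.05). Noncoding RNAs and EVX genes of the clusters had 8 measured of 25 listed, and none passed in any clone.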

How the data were processed

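Total RNA of U-87MG clones was measured on Affymetrix gene arrays. The authors deposited RMA intensity on a linear scale, per the labels (no version; joint normalization of all arrays is not stated), and log2 values were taken here with no filter. The array series was read from the prefix of the scanner file names, which is an assumption. limma 3.58.1 (lmFit, eBayes; R 4.3.3) was fitted to 21 arrays in 7 groups and, for parkin against vector, to 6 clone means, and p-values were Benjamini-Hochberg adjusted over 26947 probe sets. The fits were checked on simulated data. Symbols came from the array's annotation table (1 symbol for 19305 probe sets, several for 1750, 5892 not listed). Members, gene lists and tests were chosen with earlier results of these data known. Full values are given for members called or past the test in a clone and, otherwise, for the 2 of a cluster with the largest differences. Parkin's own transcript was not analysed here. Alternatives covered normalization, filters, offset, thresholds, blocks, series and left-out arrays. Among the members, RefSeq ranges of HOXB3 and HOXB4 and of HOXD3 and HOXD4 overlap, so these pairs are uncertain. Overlap with genes that are not members, such as HOXC4 and HOXC6, was not checked, so HOXC5 may be uncertain too. Neighbours and sequences came from RefSeq on GRCh38.p14. Array number limits precision.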

Additional observations from a re-analysis of the deposited data

Results flagged for a closer look

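Both HOXD10 and HOXD11 differed between the parkin clones PK7 and PK19 within the same array series. HOXD10 was 1.73 higher in PK7 than in PK19 on the log2 scale, and its adjusted p (limma) ranged from 6.6e-07 to 0.00076 over the reported fit and 17 other settings. HOXD11 was 1.28 higher in PK7 than in PK19, with an adjusted p of 3.7e-08 to 0.00019 over the same settings. In each gene all 3 PK7 arrays lay above all 3 PK19 arrays. Among the 6 V22 arrays, a test for a single far-off array marked 0 of the 27 members.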

How the results depend on the processing

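No called result changed sign. With no minimum fold, called members against V22 numbered 4 in PK7 (15.2% of all probe sets), 6 in PK19 (14%) and 4 in V8 (8%). Against PK25 they numbered 4 in PK7 (13.9%) and 4 in PK19 (14.9%). There were 4 in PK7 against PK19 (15.8%) and 5 in V8 against V17 (8.31%). With a 1.5-fold minimum, the counts against V22 were 2 in PK7 (7.31% of all probe sets), 3 in PK19 (7.81%) and 3 in V8 (3.68%). Against PK25 they were 2 in PK7 (6.47%) and 2 in PK19 (7.51%). PK7 against PK19 had 2 (7.58%) and V8 against V17 had 3 (3.71%). With 16 added to each intensity before the log, 1 member was called in PK19 against V22 (2.05% of all probe sets), since HOXD11 was at -0.86. Leaving out 1 array gave 1 to 2 members in PK19 against V22, where 2.78% to 2.92% of all probe sets were called. It gave 0 to 1 in V8 against V17 (HOXC8 without the set 1 array of V8, 0.965% of all probe sets). It also gave 0 to 1 in PK7 against PK25 (HOXD10 without the set 2 array of PK25, 2.31%). PK19 against PK25 had 0 to 1 as well (HOXD10 without the set 3 array of PK25, 2.54%). Without the 2 arrays of highest median, an alternative chosen after seeing the data, PK19 against PK25 had 1 member called (2.6% of all probe sets).

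For parkin against vector, 2 members were called with arrays as observations and the clone as a random block (HOXC5 and HOXD8), where 3.13% of all probe sets were. With a replicate block for the set number and no adjustment for the series, 3 were called (HOXC5, HOXD4 and HOXD8), 11.1% of the members against 15.2% of all probe sets. Both treat the arrays of a clone as observations. Clone means were apart in 15 members with V22 of the second series as the only vector sample (46.3% of all probe sets), and in 8 to 12 with 1 clone left out (27% to 38.9% of all probe sets), with 12 without PK19 (35.4%) and 11 without V22 (33.4%). With V17 and V22 counted once, clone means were apart in 8 members (31% of all probe sets). No member was called there, against 0.00371% of all probe sets. The set numbers were not taken as pairs, since not every same-set correlation of deviations was over 0.1. In the first series these were 0.0591 to 0.216, all above the -0.141 to 0.0533 of different sets, so that 9 of 9 arrays correlated best with their own set, a hint from the data and not the design. Among parkin arrays they were -0.0917 to 0.381, against -0.365 to 0.323 for different sets, with 3 of 9 arrays best with their own. With the set block, counts of called members stayed the same in V8 and V17 against V22 and among the parkin clones, while HOXB2 and HOXD9 in PK7 against PK19, HOXC5 in PK7 against PK25, HOXD13 in PK19 against PK25 and HOXD9 in V8 against V17 no longer passed the adjusted p.

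The median HOXD difference in PK7 was -0.0599 with arrays centred on their medians and 0.0199 without the 2 arrays of highest median. The HOXB median was 0.00665 in PK25 without those arrays, and -0.0288 in V8 without the dimmest 30% of probe sets; the cause was not tested. Of 31 results of single members past the adjusted p, 19 passed in all settings run and 12 missed it in at least 1. A change of the fold minimum leaves the adjusted p as it was. So does the mean of all probe sets of a gene, since each member had 1. These settings could not miss it, here or in the counts of settings above. Dim members limit what these arrays can show.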
